A study of Mus musculus with 4 samples.

Results

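The platelet-derived growth factor (PDGF) ligands and receptors were followed across 4 mouse tissue sections profiled with 10x Visium, a spatial RNA assay that assigns transcripts to barcoded spots under the tissue and counts each molecule by its unique molecular identifier (UMI). The members were the ligand genes Pdgfa, Pdgfb, Pdgfc and Pdgfd and the receptor genes Pdgfra and Pdgfrb. These 6 of the 32285 genes listed in the files were named by gene symbol, with earlier results of these data known. The groups were oral mucosa at postoperative day 4, unwounded oral mucosa, facial skin at postoperative day 4 and unwounded facial skin. All tissue was labelled wildtype and flash-frozen, and neither strain nor age of the mice is stated in the labels. With 1 section per group there was no replicate, so no test was run and each comparison sets 1 section against another.

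PDGFs are dimeric mitogens that bind and pair receptor tyrosine kinases on mesenchymal cells. PDGF-A and PDGF-C dimers act mainly through PDGFRα, PDGF-B through both receptors and PDGF-D mainly through PDGFRβ. In skin, epithelial and hair follicle PDGF-A signals to PDGFRα-positive fibroblasts, endothelial PDGF-B recruits PDGFRβ-positive pericytes, and platelets and macrophages deliver PDGF to wounds. A spot covers a small area with cells of more than 1 type, so which cells made a transcript cannot be read from it.

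The sequence just before a RefSeq transcription start is shown for the ligand and the receptor with the most UMIs, Pdgfa and Pdgfra, and for Pdgfc, a second PDGFRα ligand whose level followed that of both receptors across regions. Each is 250 bases, 5′ to 3′ on the gene's strand, from RefSeq on GRCm38.p6. Capitals mark the GC box GGGCGG or its reverse complement CCGCCC, the core of SP1-type sites.
Pdgfa: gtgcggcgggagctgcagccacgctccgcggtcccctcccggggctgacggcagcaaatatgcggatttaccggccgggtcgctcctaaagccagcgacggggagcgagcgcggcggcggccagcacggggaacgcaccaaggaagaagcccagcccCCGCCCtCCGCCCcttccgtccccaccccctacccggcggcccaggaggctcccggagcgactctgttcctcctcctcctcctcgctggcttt
Pdgfc: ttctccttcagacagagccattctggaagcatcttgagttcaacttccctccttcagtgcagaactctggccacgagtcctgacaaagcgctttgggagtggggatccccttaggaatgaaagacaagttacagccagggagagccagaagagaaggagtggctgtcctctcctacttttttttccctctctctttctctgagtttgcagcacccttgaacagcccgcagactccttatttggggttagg
Pdgfra: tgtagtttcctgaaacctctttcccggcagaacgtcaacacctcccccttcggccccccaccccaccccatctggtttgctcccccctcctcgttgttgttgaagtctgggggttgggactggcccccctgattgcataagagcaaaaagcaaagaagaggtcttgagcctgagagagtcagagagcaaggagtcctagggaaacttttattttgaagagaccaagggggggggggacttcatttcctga
The Pdgfa sequence lies at chr5:138994945-138995194 on the minus strand, the Pdgfc sequence at chr3:81036166-81036415 on the plus strand and the Pdgfra sequence at chr5:75152001-75152250 on the plus strand. The starts used for Pdgfa, Pdgfd and Pdgfra lie inside the gene spans given below, so they are not the outermost annotated starts, whereas that of Pdgfc is the first base of its gene. Pdgfa had 72.4% G and C bases and 2 GC boxes, whereas Pdgfc had 50.8% and Pdgfra 54.4% with no GC box. Over 32851 promoter windows of this length, searched on both strands, the median was 52.4% and 32.7% held a GC box. A separate RefSeq start of Pdgfa, with its window at chr5:138994282-138994531, had 66.4% G and C bases and 1 GC box. The EGR1-type motifs GCGGGGGCG and GCGTGGGCG, present in 2.57% and 0.536% of windows, were in none of the windows of Pdgfa, Pdgfc, Pdgfd and Pdgfra. TATAAA, present in 12.4% of windows, was in the Pdgfd window, and CCAAT, present in 33.8%, was in none of these members' windows.

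The oral day 4 section held 430 tissue spots and 3004174 UMIs, the unwounded oral section 1288 spots and 7285023 UMIs, the facial day 4 section 1141 spots and 9934290 UMIs, and the section labelled unwounded facial skin 671 spots and 11939479 UMIs. In the unwounded oral section only 523 spots reached 1000 UMIs, and spots below that held 0.816% of its UMIs. Mitochondrial genes took 11.9%, 20.8%, 2.75% and 2.71% of UMIs in the same order. Xist had 84 and 909 UMIs in the oral and facial day 4 sections and 0 and 1 in the unwounded ones, whereas the Y-linked Ddx3y had 0 and 0 UMIs at day 4 and 280 and 587 in unwounded tissue. Sex and wounding therefore cannot be told apart. Neutrophil markers summed to 3938 CPM at oral day 4 and 33.2 CPM in unwounded oral mucosa, but to 264 CPM at facial day 4 and 6414 CPM in the section labelled unwounded facial skin, where 9 of 9 measured markers were lower at day 4. The facial neutrophil levels thus ran opposite to the oral ones. The facial labels were used as given, and no value here checks them independently. If the facial sections were exchanged, every day 4 over unwounded ratio of facial skin would change sign. Both oral over facial comparisons would then set oral mucosa against the other facial section, and each facial region and balance would change its label. Skeletal muscle markers summed to 48620 and 56725 CPM in the day 4 and unwounded oral sections, against 1038 and 1242 CPM in the facial ones. Salivary gland markers summed to 3900 CPM at oral day 4 and 30.1 CPM in unwounded oral mucosa, so a gland was present in the day 4 oral section, and hair follicle markers summed to at most 27.6 CPM in oral mucosa and at least 186 CPM in facial skin.

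Levels are UMIs summed over all spots of a section and scaled to that section's total (CPM), with the exact 95% Poisson interval. The interval covers counting error only. A gene was called higher or lower if its fold difference in CPM was 1.5 or more with intervals apart. Genes needed 20 UMIs summed over the pair of sections, which all 6 members had in all 4 comparisons. Fewer cells of a type and less RNA per cell cannot be told apart in such sums.

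Pdgfa was the most counted ligand in every section. It had 97 UMIs at oral day 4 (32.3 CPM, interval 26.2 to 39.4), 116 in unwounded oral mucosa (15.9 CPM, 13.2 to 19.1), 387 at facial day 4 (39.0 CPM, 35.2 to 43.0) and 278 in unwounded facial skin (23.3 CPM, 20.6 to 26.2). Both day 4 levels were thus above both unwounded levels, although the oral day 4 interval reached down to that of unwounded facial skin, and the 2 day 4 intervals overlapped. The gene lies on chromosome 5 (138976014 to 139000792, GRCm38.p6, ENSMUSG00000025856) and encodes the A chain.

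Pdgfb, on chromosome 15 (79995865 to 80024614, ENSMUSG00000000489), encodes the B chain and is the classical platelet and endothelial ligand. It had 57 UMIs at oral day 4 (19.0 CPM, 14.4 to 24.6), 68 in unwounded oral mucosa (9.33 CPM, 7.25 to 11.8), 269 at facial day 4 (27.1 CPM, 23.9 to 30.5) and 215 in unwounded facial skin (18.0 CPM, 15.7 to 20.6). Unwounded oral mucosa had the lowest level, and the interval of oral day 4 overlapped those of both facial sections.

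Pdgfc, on chromosome 3 (81036416 to 81214040, ENSMUSG00000028019), encodes a ligand that is secreted latent and cut by proteases such as tissue plasminogen activator. It had 30 UMIs at oral day 4 (9.99 CPM, 6.74 to 14.3), 48 in unwounded oral mucosa (6.59 CPM, 4.86 to 8.74), 181 at facial day 4 (18.2 CPM, 15.7 to 21.1) and 173 in unwounded facial skin (14.5 CPM, 12.4 to 16.8). The facial levels lay above the oral ones, but the oral day 4 interval overlapped that of unwounded facial skin, and day 4 and unwounded intervals overlapped within each tissue.

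Pdgfd, on chromosome 9 (6168363 to 6534284, ENSMUSG00000032006), encodes the other latent ligand and was close to the limit of detection. It had 9 UMIs at oral day 4 (3.0 CPM, 1.37 to 5.69), 27 in unwounded oral mucosa (3.71 CPM, 2.44 to 5.39), 22 at facial day 4 (2.21 CPM, 1.39 to 3.35) and 21 in unwounded facial skin (1.76 CPM, 1.09 to 2.69). All 4 intervals overlapped with each other.

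Pdgfra, on chromosome 5 (75151322 to 75198206, ENSMUSG00000029231), encodes the α receptor of fibroblasts and was the most counted member in every section. It had 120 UMIs at oral day 4 (39.9 CPM, 33.1 to 47.8), 230 in unwounded oral mucosa (31.6 CPM, 27.6 to 35.9), 1040 at facial day 4 (105 CPM, 98.4 to 111) and 818 in unwounded facial skin (68.5 CPM, 63.9 to 73.4). The 2 oral intervals overlapped, and both facial levels lay above them.

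Pdgfrb, on chromosome 18 (61045127 to 61085067, ENSMUSG00000024620), encodes the β receptor of pericytes and fibroblasts. It had 118 UMIs at oral day 4 (39.3 CPM, 32.5 to 47.0), 97 in unwounded oral mucosa (13.3 CPM, 10.8 to 16.2), 720 at facial day 4 (72.5 CPM, 67.3 to 78.0) and 639 in unwounded facial skin (53.5 CPM, 49.5 to 57.8). None of the 4 intervals overlapped, and unwounded oral mucosa stood lowest.

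**Figure D1:**
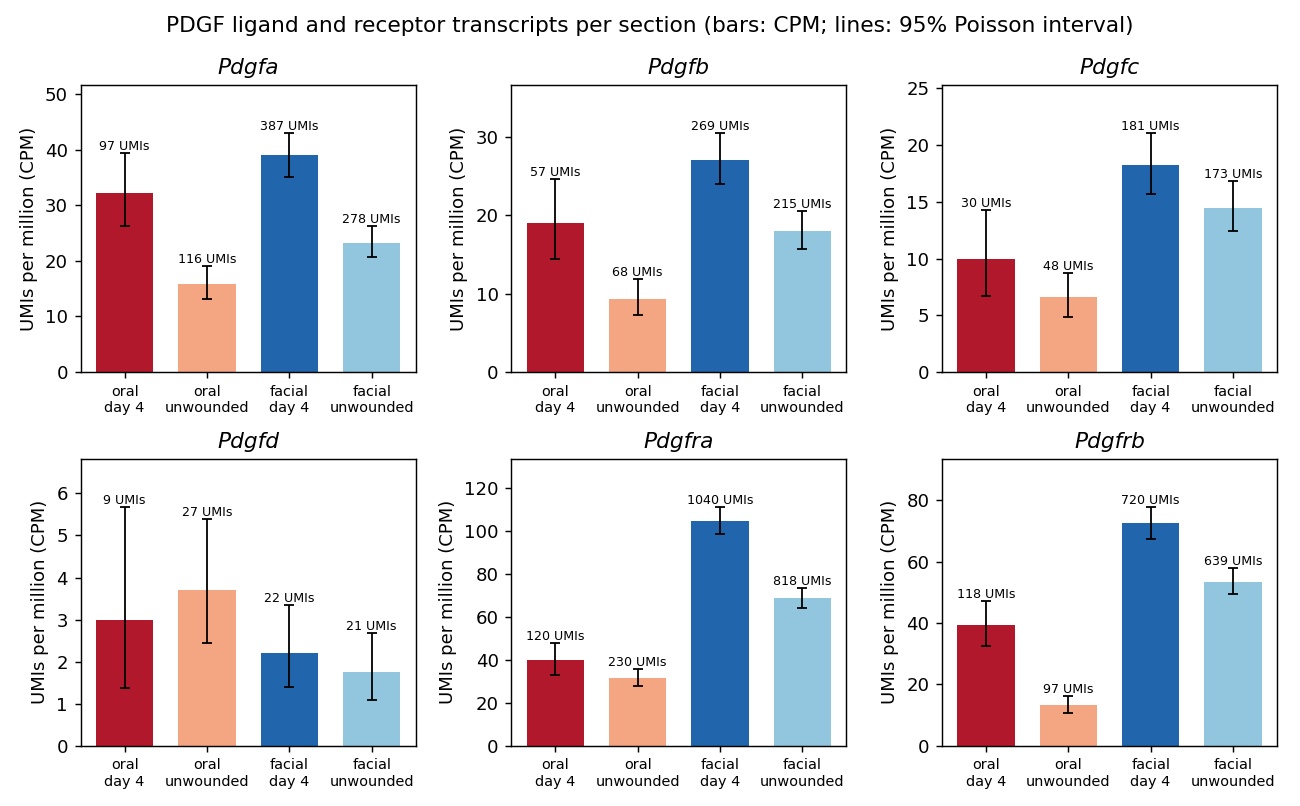
Level of each member in the 4 sections, in CPM, with the UMI count above each bar and the exact 95% Poisson interval as a line. Each bar is 1 section; Pdgfa is higher in both day 4 sections (32.3 and 39.0 CPM) than in both unwounded ones (15.9 and 23.3 CPM), and Pdgfrb in unwounded oral mucosa (13.3 CPM) is below the other 3 sections.

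In oral mucosa at day 4, Pdgfrb, Pdgfa and Pdgfb were called higher than in unwounded oral mucosa, 3 of the 6 members, and none was called lower. Over all 12543 genes measured in this comparison 24.1% were called, 20.6% higher and 3.56% lower. The log2 ratio of Pdgfrb was 1.56 (1.16 to 1.96), a 2.95-fold difference. Pdgfa had a log2 ratio of 1.02 (0.62 to 1.42) and Pdgfb of 1.02 (0.49 to 1.55). Pdgfc at 0.60 (-0.11 to 1.29), Pdgfra at 0.34 (0.01 to 0.66) and Pdgfd at -0.31 (-1.58 to 0.82) were not called. The median log2 ratio of all genes was 0.17. With trimmed-mean (TMM) scaling, which lowers every log2 ratio of this comparison by 0.34, Pdgfra stood at 0.00, Pdgfa at 0.68 and Pdgfrb at 1.23. Fibroblast markers summed to 5400 CPM at day 4 and 2105 CPM in unwounded oral mucosa, with 5 of 12 called higher and none at 0. Endothelial markers summed to 386 and 229 CPM, platelet markers to 649 and 52.8 CPM and macrophage markers to 1516 and 368 CPM in the day 4 and unwounded oral sections. The part of these cells in the member levels was not tested. Per fibroblast-marker UMI the log2 ratios of Pdgfa and Pdgfb were both -0.34, no member was called higher and 2 were called lower. This scaling moves every log2 ratio of a comparison by the same amount, and the share of all genes called under it is not given here. Without part 2 of the day 4 section, 1 of 4 parts split at the median array row and column, only 1 member was called, Pdgfa stood at 0.36, Pdgfb at 0.39, Pdgfc at -0.17 and Pdgfrb at 1.24, and without part 3 of it 5 were called. In spots with under 1% skeletal muscle markers Pdgfa stood at 1.80, Pdgfb at 2.45, Pdgfra at 1.0 and Pdgfrb at 2.57. With each spot given equal weight Pdgfa stood at 2.86, Pdgfb at 2.58 and Pdgfra at 1.77, and without part 3 of the day 4 section Pdgfa stood at 1.55.

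In facial skin at day 4, Pdgfa, Pdgfra and Pdgfb were called higher than in unwounded facial skin, again 3 of 6, with none lower. The background over 14230 genes was 14.7% called, 6.09% higher and 8.59% lower. Pdgfa was 1.67-fold higher (log2 ratio 0.74, 0.52 to 0.97), Pdgfra 1.53-fold (0.61, 0.48 to 0.75) and Pdgfb by a log2 ratio of 0.59 (0.32 to 0.85). Pdgfrb at 1.35-fold (0.44, 0.28 to 0.59), Pdgfc at 0.33 (0.02 to 0.64) and Pdgfd at 0.33 (-0.60 to 1.27) were not called. Pdgfra and Pdgfb lay just past the fold limit. The median of all genes was -0.03. Fibroblast markers summed to 9275 CPM at day 4 and 6859 CPM in unwounded skin, with 2 of 12 called higher, and per fibroblast-marker UMI no member was called. These calls depended on which parts of the sections were counted. Without part 2 of the facial day 4 section no member was called, with Pdgfra at 0.19, Pdgfrb at 0.03 and Pdgfc at 0.00. None was called either without part 2 of the unwounded facial section, 1 was called without part 1 of the day 4 section or part 3 of the unwounded one, and 5 were called without part 4 of the day 4 section. Without the small Cxcl2-led region of unwounded facial skin, in which neutrophil markers made up 6.32% of UMIs, 2 members were called.

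Unwounded oral mucosa had lower Pdgfrb, Pdgfc, Pdgfra and Pdgfb than unwounded facial skin, 4 of 6 members called lower and none higher. In this comparison 69.8% of 14025 genes were called, 59.7% lower and 10.1% higher, and the median of all genes was -0.47. Pdgfrb had a log2 ratio of -2.01 (-2.33 to -1.70), Pdgfc of -1.14, Pdgfra of -1.12 (-1.34 to -0.91) and Pdgfb of -0.95. Pdgfa at -0.55 (-0.87 to -0.23) was under the fold limit, and Pdgfd at 1.08 (0.20 to 1.97) had overlapping CPM intervals. TMM scaling raises every log2 ratio here by 0.76. It left only Pdgfrb called lower, at -1.24, called Pdgfd higher, at 1.84, and turned Pdgfa to 0.22. Fibroblast markers summed to 2105 CPM in oral mucosa and 6859 CPM in facial skin. They did not move together, with 5 of 12 called lower and 2 called higher in oral mucosa. Per fibroblast-marker UMI no member was called lower and 4 were called higher, Pdgfa at 1.16, Pdgfb at 0.76, Pdgfd at 2.78 and Pdgfra at 0.59. Pdgfc turned to 0.57 and was not called. The fibroblast-marker scaling raises every log2 ratio here by the same amount, and the share of all genes called under it is not given here. Without part 3 of the unwounded oral section or part 1 of the unwounded facial one, 1 member was called higher.

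At day 4 oral mucosa had lower Pdgfra, Pdgfrb and Pdgfc than facial skin, 3 of 6 members, with none higher. Of 13632 genes 47% were called, 35.5% lower and 11.5% higher, and the median was -0.27. Pdgfra stood at -1.39 (-1.68 to -1.12), Pdgfrb at -0.88 (-1.18 to -0.60) and Pdgfc at -0.87. Pdgfa at -0.27, Pdgfb at -0.51 and Pdgfd at 0.44 were not called. TMM scaling, adding 0.36, left 1 member called, with Pdgfra at -1.03. Without part 2 of the oral day 4 section 5 members were called lower, and 1 was called without part 3 of it or without part 1 or part 2 of the facial day 4 section. The 4 comparisons share sections in pairs, so their ratios are not independent of each other.

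**Figure D2:**
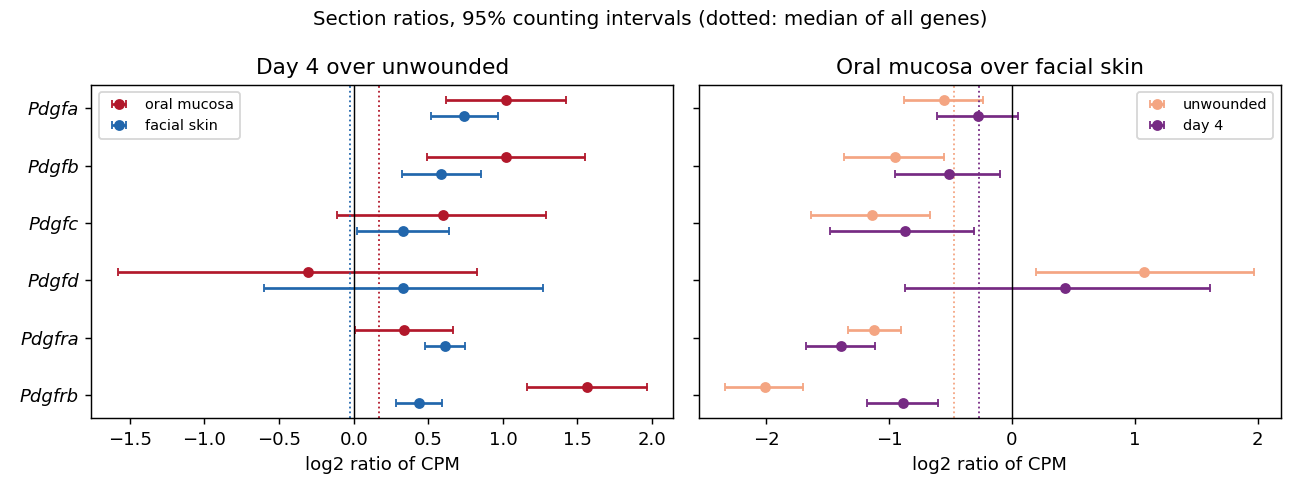
Log2 ratio of CPM for each member, at day 4 over unwounded (left) and in oral mucosa over facial skin (right), with exact 95% counting intervals. Dotted lines are the median of all genes in that comparison; on the left Pdgfrb in oral mucosa (1.56) lies farthest to the right, and on the right Pdgfrb in unwounded tissue (-2.01) lies farthest to the left.

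The balance between the receptors does not depend on how section totals are scaled. There were 1.02 Pdgfra UMIs per Pdgfrb UMI at oral day 4 (0.78 to 1.32), 2.37 in unwounded oral mucosa (1.86 to 3.04), 1.44 at facial day 4 (1.31 to 1.59) and 1.28 in unwounded facial skin (1.15 to 1.42). Unwounded oral mucosa stood apart from the other 3 sections. The log2 difference at day 4 was -1.22 (-1.72 to -0.72) in oral mucosa and 0.17 (-0.03 to 0.38) in facial skin. Between oral mucosa and facial skin it was 0.89 (0.52 to 1.26) unwounded and -0.51 (-0.90 to -0.11) at day 4.

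The order of the sections was the same in spots rich in fibroblast markers. Spots with at least 1000 UMIs were ranked by the share of a marker list, and the richest and the poorest spots are the 91, 130, 274 and 163 spots at each end in oral day 4, unwounded oral, facial day 4 and unwounded facial sections. In the spots richest in fibroblast markers the ratio was 1.15 (0.76 to 1.74) at oral day 4, 2.46 (1.70 to 3.63) in unwounded oral mucosa, 1.47 (1.28 to 1.69) at facial day 4 and 1.35 (1.18 to 1.55) in unwounded facial skin. In the spots richest in endothelial markers it was 0.98, 3.46, 1.49 and 1.15 in the same order. Within unwounded oral mucosa nearly all receptor UMIs came from 2 of the 4 parts, with ratios of 2.18 (1.43 to 3.37) and 2.52 (1.86 to 3.43). The high ratio did not hold when each spot was given equal weight, where it was 1.07 in unwounded oral mucosa. In this setting the spots under 1000 UMIs count as much as the rest.

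**Figure D3:**
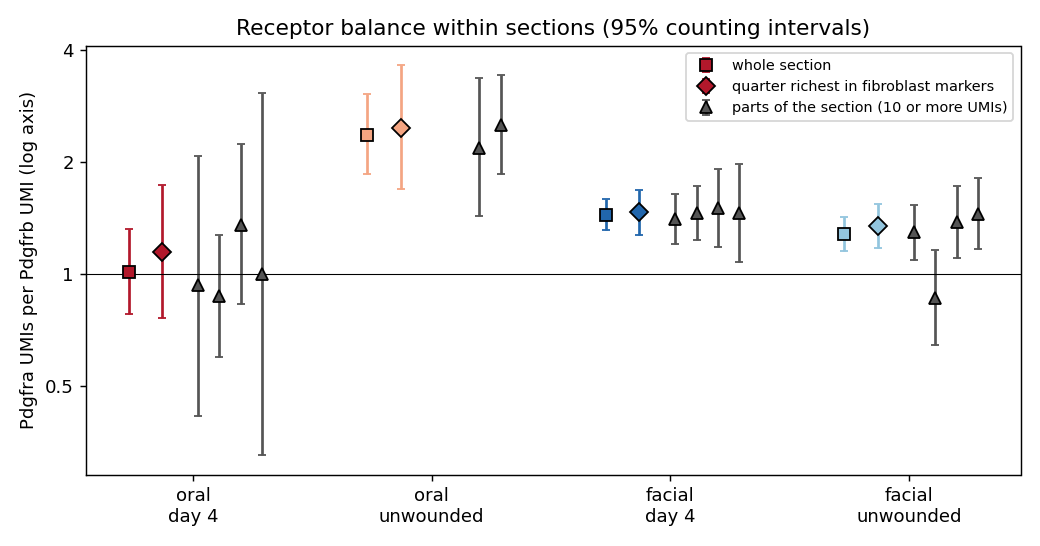
Pdgfra UMIs per Pdgfrb UMI (log axis) in each whole section, in its spots richest in fibroblast markers, and in those of its 4 parts with at least 10 receptor UMIs, with exact 95% counting intervals. The unwounded oral points (2.37 for the section) lie above those of the other 3 sections (1.02, 1.44 and 1.28).

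Each ligand's share of all ligand UMIs was compared next. Pdgfa made up 50.3% of ligand UMIs at oral day 4 (43.0 to 57.5), 44.8% in unwounded oral mucosa (38.6 to 51.1), 45.1% at facial day 4 (41.7 to 48.5) and 40.5% in unwounded facial skin (36.8 to 44.2), with Clopper-Pearson intervals that overlapped within each tissue. Pdgfb made up 29.5%, 26.3%, 31.3% and 31.3% of ligand UMIs in the same order. Pdgfc made up 15.5% and 18.5% in the day 4 and unwounded oral sections and 21.1% and 25.2% in the facial ones. The Pdgfd share was highest in unwounded oral mucosa, at 10.4% (6.98 to 14.8), against 4.66%, 2.56% and 3.06% at oral day 4, at facial day 4 and in unwounded facial skin. Both oral sections had more ligand UMIs per receptor UMI, 0.811 (0.667 to 0.985) at day 4 and 0.792 (0.670 to 0.935) unwounded, than the facial sections with 0.488 (0.449 to 0.530) and 0.472 (0.430 to 0.517). There were 0.808 Pdgfa UMIs per Pdgfra UMI at oral day 4 and 0.504 in unwounded oral mucosa, a log2 difference of 0.68 (0.18 to 1.18). The same ratio was 0.372 at facial day 4 and 0.340 in unwounded facial skin. These are UMI ratios of transcripts, not of protein.

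The place of each member in the tissue was read from regions, groups of spots with similar expression found in each section with the 6 members left out of the grouping. The 22 regions that held at least 1% of their section's UMIs are called by their leading genes. At facial day 4 the highest level of both receptors was in the region led by Cxcl5, S100a9, Spp1 and Cthrc1, in which inflammatory and matrix genes lead. Pdgfra had 503 CPM there (444 to 568, 262 UMIs) and Pdgfrb 372 CPM (322 to 429, 194 UMIs). Fibroblast markers made up 4.80% of the region's UMIs, the highest share of the 22 regions. Pdgfc was also highest in this region, at 73.0 CPM (51.6 to 100), and Pdgfb reached 53.8 CPM (35.7 to 77.7). The Pdgfc interval overlapped those of the Myh1-led region (64.2 CPM, 43.6 to 91.1) and the Actc1-led region (56.9 CPM, 31.1 to 95.5).

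Pdgfa had its highest level at facial day 4 in another region than the receptors. It peaked at 115 CPM (98.2 to 133, 176 of the section's 387 UMIs) in the region led by Car3, Cfd and Hp, which also ranked the hair follicle gene Lhx2 and the hedgehog receptor Ptch1 among its leading genes. Its interval did not overlap that of the Cxcl5-led region, where it had 48.0 CPM (31.1 to 70.9). The Car3-led region also held 417 of the section's 1040 Pdgfra UMIs, at 271 CPM, and 230 of its 720 Pdgfrb UMIs, at 150 CPM. In spots richest in hair follicle markers Pdgfa had 98.8 CPM, against 28.9 CPM in the poorest, whereas Pdgfb had 15.5 against 32.0 CPM. In unwounded facial skin the regions led by Tbx1, Coch and Dct and by Acta1, Cryab and Myh1 held the highest Pdgfa, 43.9 CPM (35.7 to 53.3) and 41.1 CPM (29.8 to 55.4). The unwounded muscle-gene region also held the highest Pdgfra of that section, 210 CPM (184 to 240), and the highest Pdgfrb, 164 CPM (141 to 191), with fibroblast markers at 2.72% of its UMIs. The place of this peak depended on the resolution of the grouping. At resolution 1 the muscle-gene region had 6 spots with Pdgfra at 142 CPM on 27 UMIs and 18 Pdgfrb UMIs, and the highest levels, 225 CPM for Pdgfra and 180 CPM for Pdgfrb, were in a region led by Cfd, Hp and Fabp4. The same setting put, at facial day 4, the highest Pdgfa, 127 CPM (94.2 to 168), in a region led by Dct and Slc7a2, beside 118 CPM (90.8 to 151) in the Car3-led region, and kept the highest level of both receptors in the Cxcl5-led region.

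Pdgfb was spread differently from the receptors. At facial day 4, 117 of its 269 UMIs came from the region led by the stefin genes Stfa3, Cstdc5 and Stfa1. That region held 44.1% of the section's UMIs, and its 26.7 CPM of Pdgfb was near the 27.1 CPM of the whole section. Pdgfb had 29.7 CPM in the region led by the cornified envelope gene Lce1h. In the Lce1h-led region Pdgfra had 7.42 CPM and Pdgfa 6.50 CPM. The highest Pdgfb level, 69.1 CPM (40.3 to 111, 17 UMIs), was in the region led by Actc1, Myl4 and Myh8, genes of developing muscle. Pdgfra had 244 CPM and Pdgfrb 236 CPM there. The Pdgfb interval overlapped that of the receptor-rich Cxcl5-led region (53.8 CPM, 35.7 to 77.7). In the facial day 4 spots richest in suprabasal keratinocyte markers Pdgfb had 29.0 CPM, against 33.8 CPM in the poorest, whereas Pdgfra had 13.9 against 379 CPM and Pdgfa 13.7 against 97.9 CPM. In the spots richest in endothelial markers Pdgfb had 56.4 CPM at oral day 4, against 8.84 CPM in the poorest, and 18.8 against 7.38 CPM in unwounded oral mucosa. It had 44.2 against 27.8 CPM at facial day 4 and 29.7 against 14.9 CPM in unwounded facial skin.

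In oral mucosa at day 4 the region led by the platelet and neutrophil chemokines Ppbp, Cxcl5 and Cxcl3 held 50 of the 97 Pdgfa UMIs, at 71.9 CPM (53.4 to 94.8), and 28 of the 57 Pdgfb UMIs, at 40.3 CPM (26.8 to 58.2). Pdgfra had 63.3 CPM and Pdgfrb 54.7 CPM there. In the region led by Myh4, Postn and Mybph, Pdgfrb was at 76.6 CPM (56.1 to 102) and Pdgfra at 63.3 CPM (44.8 to 86.8), while the muscle region led by Myh2, Myh8 and Myoz1 had 19.6 and 17.8 CPM. The highest Pdgfra value, 116 CPM (63.3 to 194), was in the region led by the salivary genes Dcpp1 and Dcpp2 and rests on 14 UMIs. At resolution 1 the highest Pdgfra of the section was instead in a region led by Reg3g and Spp1, at 133 CPM (94.7 to 182, 39 UMIs), and the salivary region had 99.0 CPM on 11 UMIs. The Reg3g-led region had Pdgfrb at 95.6, Pdgfa at 92.2 and Pdgfb at 41.0 CPM. In the region then led by Krt17, Sprr2f and Ppbp, Pdgfa was at 53.3 and Pdgfb at 39.9 CPM. Pdgfra was at only 13.3 CPM (5 UMIs) and Pdgfrb at 21.3 CPM in this Krt17-led region. Leaving out the gland region led by Dcpp1 and Dcpp2 kept 3 members called higher in the oral comparison.

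In unwounded oral mucosa the muscle region led by Myh2, Myh8 and Mb held 187 of 230 Pdgfra UMIs, at 36.4 CPM (31.3 to 42.0), and 81 of 97 Pdgfrb UMIs, at 15.8 CPM (12.5 to 19.6). It held 70.6% of the section's UMIs and was split at resolution 1. A region led by Myh4, Cfd and Myom2 then had Pdgfra at 51.3 CPM (43.5 to 60.2, 153 UMIs) and Pdgfrb at 20.1 CPM. The region led by Myh8 and Myh2 had only 15.7 CPM (10.9 to 22.0, 34 UMIs) and 9.72 CPM. The region led by Lyg1 and Lce1b, with keratinocyte differentiation genes, had 20.4 and 5.82 CPM. Pdgfra thus exceeded Pdgfrb in both main regions, with 2.31 (1.77 to 3.03) and 3.50 (1.81 to 7.30) UMIs per Pdgfrb UMI. The third region, 688 spots with a median of 47 UMIs, held 1 Pdgfra UMI and 4 Pdgfrb UMIs (12.3 CPM, 0.311 to 68.4, and 49.1 CPM, 13.4 to 126). In the regions of the oral day 4 section with over 10 receptor UMIs this ratio lay between 0.826 and 1.40.

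**Figure D4:**
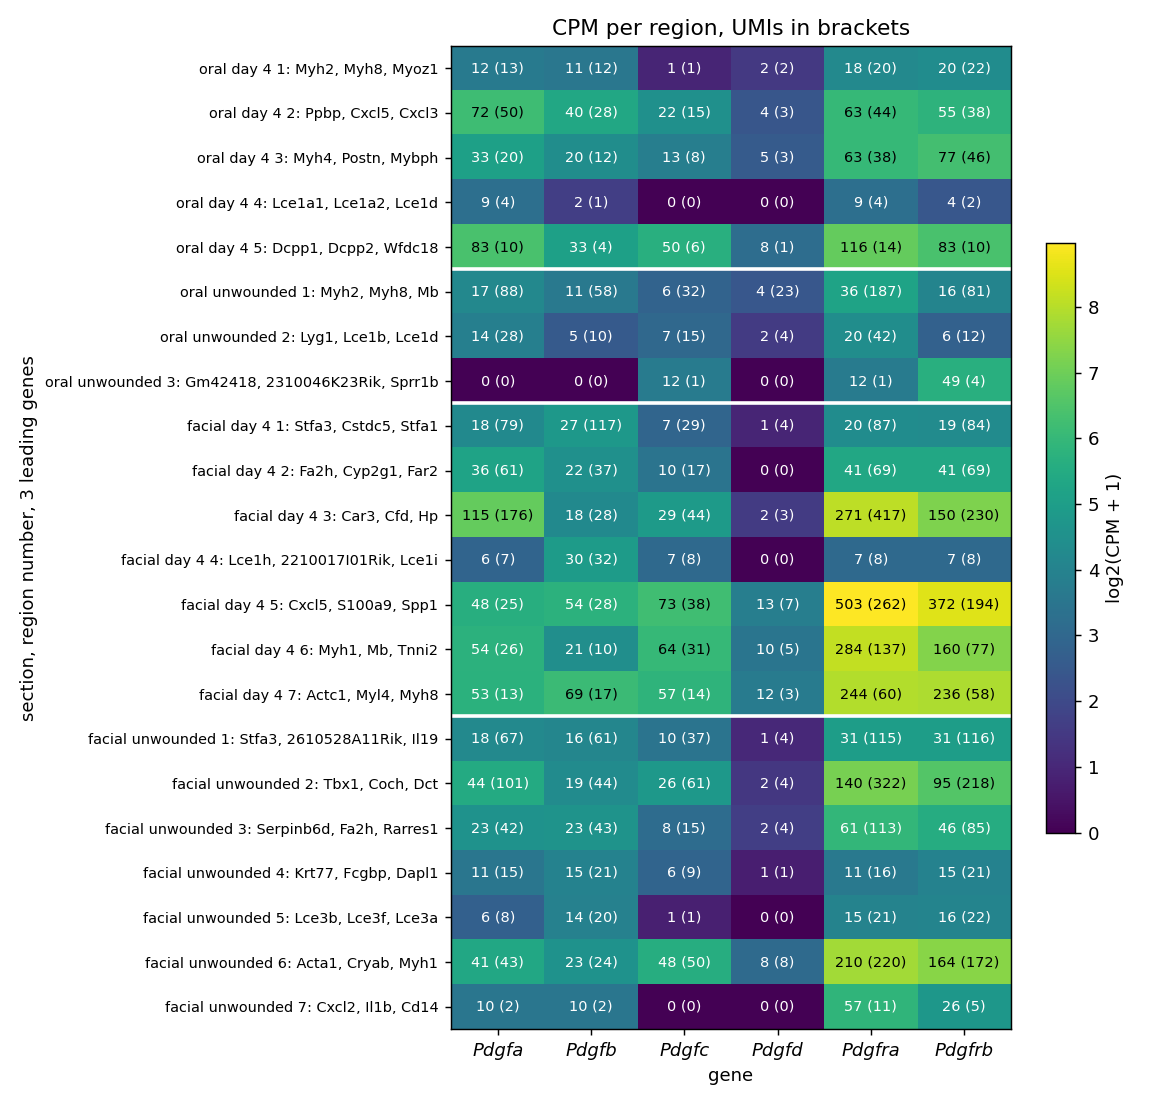
Level of each member in the 22 regions, one row per region with its 3 leading genes, grouped by section; numbers are CPM with UMIs in brackets and colour is log2(CPM + 1). The Cxcl5-led facial day 4 region is the brightest for Pdgfra (503 CPM) and Pdgfrb (372 CPM), and the Car3-led region for Pdgfa (115 CPM).

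Both receptors followed fibroblast markers in all 4 sections. Pdgfra had 159 CPM in the richest spots and 8.10 CPM in the poorest at oral day 4, 89.3 and 11.1 CPM in unwounded oral mucosa, 416 and 11.6 CPM at facial day 4, and 173 and 15.4 CPM in unwounded facial skin. Pdgfrb had 139 and 9.73 CPM, 36.2 and 5.54 CPM, 284 and 9.61 CPM, and 129 and 13.8 CPM in the same order. The sets were ranked within each section and not matched for fibroblast content: the markers made up 2.41% of UMIs in the richest spots at oral day 4, 0.674% in unwounded oral mucosa, 4.13% at facial day 4 and 1.83% in unwounded facial skin. The day 4 levels of both receptors in these sets were above the unwounded ones in both tissues (Pdgfra 120 to 208 against 72.7 to 108 CPM in oral mucosa and 381 to 454 against 159 to 189 CPM in facial skin). Over whole sections and per fibroblast-marker UMI, the log2 ratio of day 4 over unwounded was -1.02 for Pdgfra and 0.20 for Pdgfrb in oral mucosa, and 0.18 and 0.002 in facial skin. Fibroblast-rich spots were shallower, with median depths of 3253 against 11052 UMIs in the richest and poorest sets at oral day 4 and 3874.5 against 15275 at facial day 4. Across spots with at least 1000 UMIs, Spearman's rho between Pdgfra and the fibroblast-marker share was 0.30, 0.33, 0.51 and 0.58 in the 4 sections in the same order, and for Pdgfb 0.01, 0.01, -0.15 and 0.09. The tie of Pdgfra was not particular to fibroblast markers. Its rho was 0.24, 0.22, 0.42 and 0.54 with macrophage markers. With wound matrix markers such as Postn and Spp1 it was 0.24, 0.23, 0.50 and 0.40. With suprabasal keratinocyte markers it was 0.01, -0.07, -0.49 and -0.54. Spots of a section share their library and neighbours, so these values are descriptions.

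**Figure D5:**
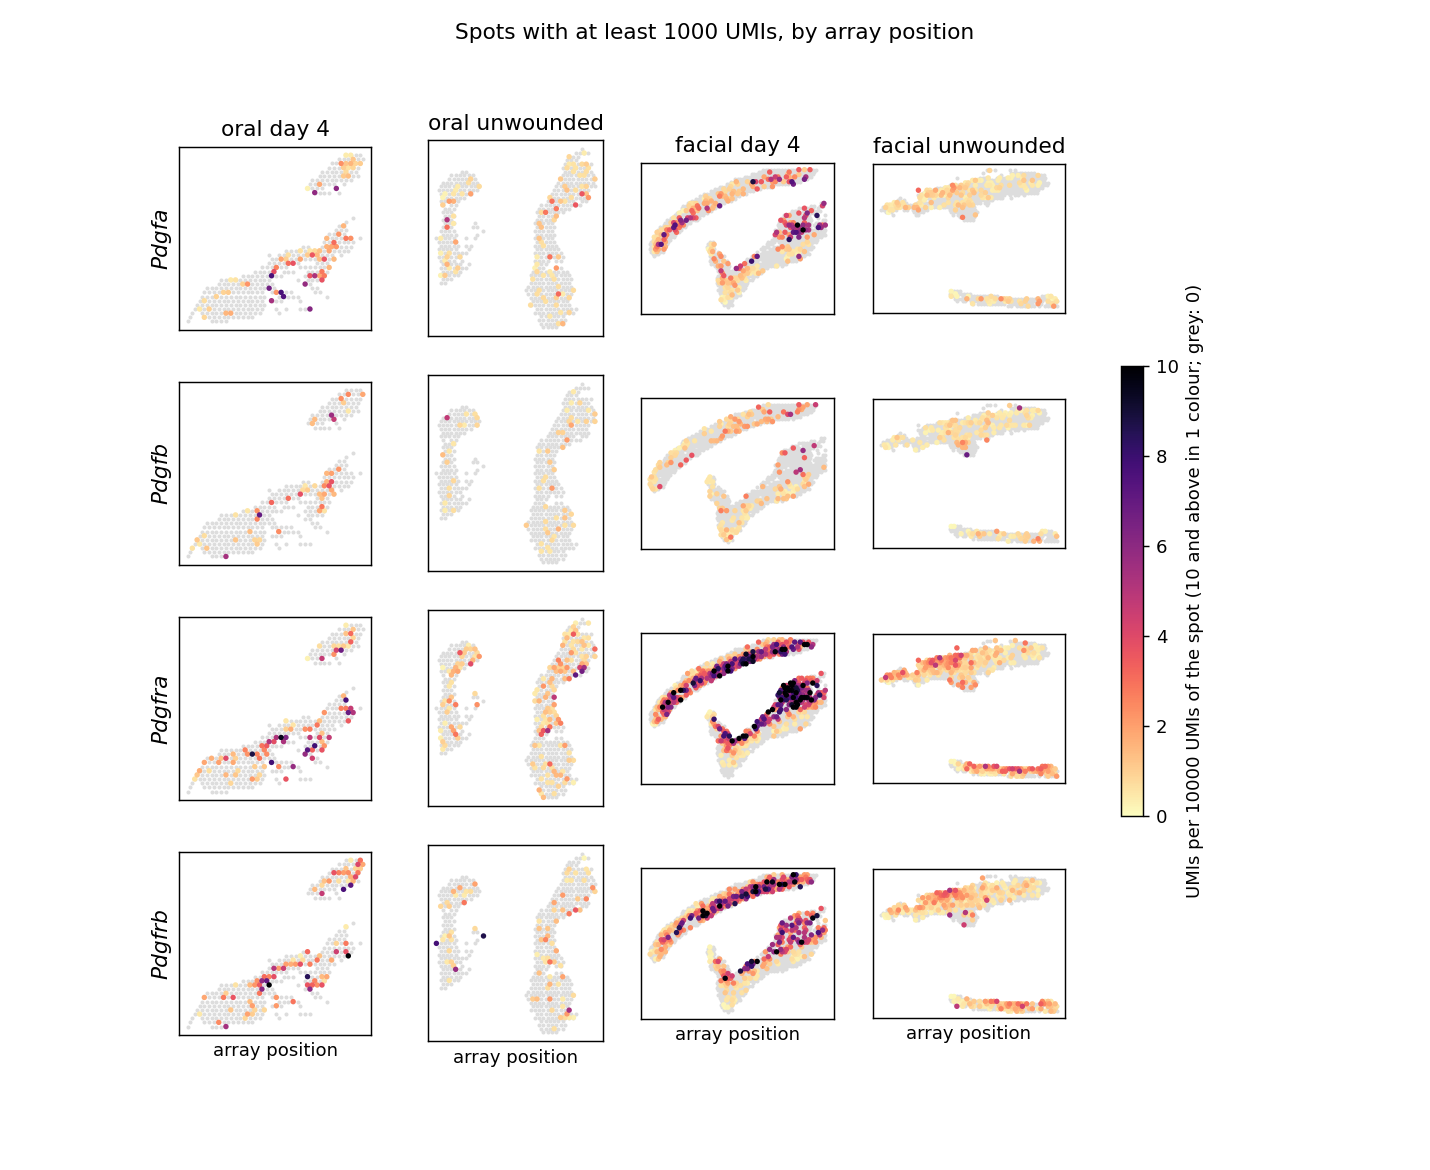
Pdgfa, Pdgfb, Pdgfra and Pdgfrb in each spot with at least 1000 UMIs, drawn at its array position, as UMIs per 10000 UMIs of the spot; grey spots had none. Pdgfra averaged 105 CPM over the facial day 4 section and Pdgfrb 13.3 CPM over the unwounded oral one. The arrangement of the spots with signal was not measured.

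Ligand and receptor were also sought in the same spot, after thinning each spot to 2000 UMIs and leaving out 109, 784, 174 and 36 shallower spots in the order used above. Pdgfra was then found in 12.5% (9.05 to 16.6), 7.74% (5.56 to 10.4), 27.4% (24.6 to 30.3) and 12.4% (9.97 to 15.3) of the spots kept, and without thinning in 20.2%, 12.3%, 46.4% and 50.2% of all spots. The facial difference depended on the depth chosen. At 1000 UMIs Pdgfra was found in 19.4% of spots at facial day 4 and 5.36% in unwounded facial skin, and at 4000 UMIs in 30% (26.6 to 33.6) and 23.5% (20.1 to 27.1), with overlapping intervals. At facial day 4, 14.0% of 265 spots with a Pdgfra UMI also held a Pdgfa UMI (10.0 to 18.7), against 8.12% of 702 spots without one (6.21 to 10.4), with intervals that just overlapped. At oral day 4 the shares were 15% of 40 spots (5.71 to 29.8) and 4.63% of 281 (2.49 to 7.78), with overlapping intervals too. The ratio of these shares was 3.24 here and 0.964 after thinning to 1000 UMIs. For Pdgfb at facial day 4 the shares were 4.15% of 265 (2.09 to 7.31) and 4.84% of 702 (3.38 to 6.70). Their ratio was 0.777 at 1000 UMIs, 0.857 at 2000 and 1.28 at 4000. With Pdgfrb it was 0.830, 0.744 and 1.59. In unwounded facial skin Pdgfb was in 8.86% of 79 spots with Pdgfra (3.64 to 17.4) and 2.16% of 556 without (1.12 to 3.74). These intervals just overlapped. The ratio with Pdgfra there was 4.82, 4.11 and 0.858 at the same depths, so it had no settled direction in either facial section. Both receptors were also looked for together. Pdgfra was found in 46.4% of 192 facial day 4 spots with Pdgfrb (39.1 to 53.7) and in 22.7% of 775 without (19.8 to 25.8), and in 35.0% of 20 unwounded oral spots with Pdgfrb (15.4 to 59.2) and 6.61% of 484 without (4.57 to 9.21). At oral day 4 it was found in 26.3% of 38 spots with Pdgfrb (13.4 to 43.1) and 10.6% of 283 without (7.27 to 14.8), and in unwounded facial skin in 17.8% of 73 (9.84 to 28.5) and 11.7% of 562 (9.20 to 14.7). The ratio of these shares held near or above 2 at facial day 4, with 2.05 at 1000 UMIs, 2.04 at 2000 and 3.001 at 4000. At oral day 4 it was 0.863, 2.48 and 0.799, in unwounded oral mucosa 2.48, 5.29 and 2.17, and in unwounded facial skin 2.28, 1.52 and 1.3 at the same depths, so it had no settled direction at oral day 4.

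Across the 22 regions, which share their sections and depth, Pdgfra and Pdgfrb had the closest pair of profiles (Pearson's r of log2(CPM + 10) 0.94), followed by Pdgfc with Pdgfrb (0.90). Pdgfb had the loosest tie to the receptors, at 0.61 with each. Among 8149 genes with at least 500 UMIs, those most like Pdgfra were Slit3 (0.96), Igf1, Sdc3, Rassf2 and Fbln2. Those most like Pdgfrb were the matrix gene Fbln2 (0.97), Col5a2, Lpar1, Fstl1 and Col3a1. Pdgfc was most like Colec12 (0.95), Ly86, Chst12, Rp2 and Il6st, Pdgfa most like Dtymk (0.93), Tceal9, Ppic, Ccnq and Galk1, and Pdgfb most like Ostm1 (0.87), Nbeal1, Nsmce2, Gosr2 and Ppme1.

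Around the members, 78 genes of ligand processing and binding, coreceptors and related kinases, receptor adaptors and effectors, negative regulators and growth-factor-induced genes were counted. At oral day 4, 36 of 73 measured were higher than in unwounded oral mucosa and 1, Srf, was lower (median log2 ratio 0.47, against 0.17 over all genes). Over all genes of this comparison 20.6% were higher and 3.56% lower. At facial day 4, 5 of 76 were higher and 23 lower than in unwounded facial skin (median -0.24, against -0.03). Over all genes 6.09% were higher, near the pathway share, and 8.59% were lower. With TMM scaling the oral count was 21, without part 2 of the oral day 4 section 9, and without part 4 of the unwounded oral section 22. The facial count of higher genes was 1 without part 2 of the day 4 section, 2 without part 1 of it or part 2 of the unwounded section, 3 without part 3 of the unwounded section, 8 without part 3 of the day 4 section and 9 without part 1 of the unwounded section.

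Among genes that process or bind the ligands, 7 of 11 were higher and none lower in the oral comparison, and 2 were higher and 2 lower of 11 in the facial one. Plat, tissue plasminogen activator, which cuts PDGF-C, was at 44.9 CPM at oral day 4 and 12.1 CPM unwounded (log2 ratio 1.90), and at 36.5 and 21.6 CPM in the day 4 and unwounded facial sections (0.76). Sparc, a matrix protein that binds PDGF-B, had log2 ratios of 1.60 in oral mucosa and 0.71 in facial skin. Thbs1, thrombospondin 1, was at 170 and 15.8 CPM in the day 4 and unwounded oral sections, but at 36.2 and 192 CPM in the facial ones. Of the coreceptors and related kinases, 4 of 9 were higher in oral mucosa, Kit (2.04), Csf1r (1.56), Nrp2 (1.37) and Csf1 (0.79), and none was lower. In facial skin Nrp1 (1.88) and Kitl (0.96) were higher and Csf1r (-0.61) and Lrp1 (-0.59) lower, of 10.

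Of the adaptors and effectors, 6 of 22 were higher in oral mucosa, a share near that over all genes, among them Src (1.01), Gab1 (0.74) and Stat3 (0.71), and only Gab1 (0.67) of 22 in facial skin. Negative regulators were higher for 8 of 14 in oral mucosa, led by Socs3 (2.82) and the phosphatase Ptprj (1.62). In facial skin 4 of 15 were lower, Dusp1 (-2.12), Socs3 (-2.08), Dusp6 (-1.22) and Spry2 (-0.67). Of the genes that growth factors induce, 11 of 17 were higher in oral mucosa, including Plaur (2.92), the chemokines Ccl2 (1.70) and Ccl7 (1.67), and Hbegf (1.48). In facial skin 15 of 18 were lower, with Fos at 54.2 and 302 CPM in the day 4 and unwounded sections and Ier3 at 70.2 and 337 CPM. These genes respond to many stimuli, and the facial counts move with the neutrophil markers given above for the section labelled unwounded facial skin, whose part in them was not tested. Between unwounded tissues 63 of 76 pathway genes were lower in oral mucosa and 1, Nrp1 (1.10), was higher (median -0.97, against -0.47), where 59.7% of all genes were lower and 10.1% higher. Egr3 was at 3.43 CPM in oral mucosa and 167 CPM in facial skin. At day 4, 33 were lower and 8 higher in oral mucosa (median -0.40, against -0.27), shares near the 35.5% lower and 11.5% higher of all genes. Thbs1 (2.23) and Ccn2 (1.95) were among the higher. With TMM scaling the day 4 counts were 17 lower and 13 higher. Without part 3 of the oral day 4 section they were 15 lower and 15 higher, and without part 2 of it 1 was higher. No pathway gene was called higher between unwounded tissues without part 4 of the oral or part 3 of the facial section.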

How the data were processed

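Gene expression was measured with 10x Visium in 4 sections, 1 per group. The authors deposited raw UMI counts per gene and tissue spot, and the file headers give Space Ranger 1.3.1 as the source. Seurat and the mm10 build are named in the submitters' processing notes. The annotation release is not stated. Spots under tissue were used without further filtering. Where 38 gene symbols were shared by several rows, none was a member.

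UMIs were summed per section and scaled to its total (CPM). Intervals are exact at 95% (Poisson, conditional for ratios, Clopper-Pearson for shares), except those of log2 differences between balances, which use a normal approximation on the log scale. All cover counting error only. The floor of 3 UMIs lies between 0.251 and 0.999 CPM. Called genes differed at least 1.5-fold with intervals apart. List medians used 10 CPM added. Regions came from Leiden clustering within each section (scanpy 1.11.5, spots scaled to 10000, 2000 variable genes, 30 components, 15 neighbours, resolution 0.5), which left the members out. Coordinates are those of RefSeq genes on GRCm38.p6. TMM factors came from edgeR 4.0.16, used for scaling only, and were 0.924, 0.732, 1.19 and 1.24 for oral day 4, unwounded oral, facial day 4 and unwounded facial sections. The counting was checked on simulated data. Pairs of sections shared 46 to 347 spot barcodes, which recur from array to array. Promoters on chromosome 18 were left out of the motif search.

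The members were named by symbol, and pathway genes were named as the 4 called members of each list and comparison with the largest log2 ratio after adding 10 CPM, with Srf named after its value was seen. Genes most like a member were the 5 highest correlations. The members and lists were chosen with earlier results of these data known. Other settings tried were TMM scaling, a total that excludes mitochondrial and the 50 most abundant genes, mean over spots, only spots of 1000 UMIs or more, only spots with under 1% muscle markers, fibroblast-marker UMIs as the total, a minimum of 100 UMIs or none, a fold of 2, resolution 1, fewer spots at each end of the marker ranking, other thinning depths, and leaving out each of 4 parts per section. The gland region, the Cxcl2-led region and marker-rich spots were added after seeing the data.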

Additional observations from a re-analysis of the deposited data

Results flagged for a closer look

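In 16 pathway genes the day 4 section was called higher than the unwounded one in oral mucosa and lower in facial skin, 12 of them among the genes named by the rule. Over all genes 20.6% were called higher in the oral comparison and 8.59% lower in the facial one. The share of all genes called in both of these directions is not given here, so the 16 are not shown to be particular to the pathway. The difference between the tissues was not tested, since each group held 1 section. It is given as the oral log2 ratio minus the facial one. Thbs1 differed by 5.83, with 3.43 in oral mucosa and -2.4 in facial skin. Socs3, an inhibitor of cytokine signalling, differed by 4.9 (2.82 and -2.08), and Plaur, the urokinase receptor, by 4.87 (2.92 and -1.95). Hbegf differed by 3.95 and the immediate early genes Fos by 3.56 and Ier3 by 3.41. The chemokines Ccl7 and Ccl2 differed by 3.04 and 2.92, and the phosphatases Dusp1 and Dusp6 by 2.88 and 2.04. Csf1r, a receptor kinase of macrophages related to the PDGF receptors, differed by 2.17, and Ccn2 by 1.78. The 4 outside the naming rule, named after their values were seen, had log2 ratios in oral mucosa and facial skin of 1.75 and -2.23 (Fosl1), 0.89 and -1.32 (Junb), and 2.07 and -1.20 (Has2), while Il6 had 27 UMIs at oral day 4 and 0 in unwounded oral mucosa and a facial log2 ratio of -2.90. Neutrophil markers moved in the same directions, at 3938 and 33.2 CPM in the day 4 and unwounded oral sections and 264 and 6414 CPM in the facial ones, and their part in these values was not tested. Exchanged facial labels would turn the facial signs. None of the 6 PDGF ligands and receptors was among these genes.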

How the results depend on the processing

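Counts of members and pathway genes past the fold moved with the scaling. With TMM scaling the pathway counts were 21 higher and 3 lower at oral day 4, the unwounded tissue counts were 1 member higher, 1 lower and 7 pathway genes higher, and the day 4 tissue counts were 1 member lower and 13 pathway genes higher and 17 lower. Per fibroblast-marker UMI, at oral day 4 0 members were higher and 2 lower, with 4 pathway genes higher and 44 lower, and Pdgfa and Pdgfb turned to -0.34. At facial day 4 it gave 0 members higher, and 1 pathway gene higher and 49 lower. Between unwounded tissues it gave 4 members higher and 0 lower and 27 pathway genes higher and 18 lower, and Pdgfb, Pdgfc and Pdgfra turned to 0.76, 0.57 and 0.59. Between day 4 tissues it gave 1 member lower and 23 pathway genes higher and 6 lower. Scaling to fibroblast-marker UMIs moves every log2 ratio of a comparison by the same amount. The share of all genes called under it is not given here, so these counts are not shown to be particular to PDGF genes. A fold of 2 left 22 pathway genes higher and 0 lower at oral day 4, 0 members and 1 pathway gene higher at facial day 4, and 1 member and 18 pathway genes lower between day 4 tissues. Means over spots gave 5 members higher and 5 pathway genes lower at oral day 4, 5 members and 15 pathway genes higher at facial day 4, and 1 member and 5 pathway genes higher between unwounded tissues. Without mitochondrial and abundant genes 2 pathway genes were lower at oral day 4, and 1 member and 3 pathway genes were higher between unwounded tissues. In spots with under 1% muscle markers 2 pathway genes were lower at oral day 4, 0 were higher between unwounded tissues, and 17 were higher and 14 lower between day 4 tissues. A minimum of 100 UMIs left 0 pathway genes higher between unwounded tissues.

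For unwounded oral mucosa Pdgfra UMIs per Pdgfrb UMI were 3.31 in spots with under 1% muscle markers, 1.07 as a mean over spots and 3.46 in the endothelial-rich spots, and the Pdgfa share as a mean over spots was 28.3%. At facial day 4 means over spots gave 1.61 and 53.6%. The highest Pdgfra level of a region was 51.3 CPM in unwounded oral mucosa at resolution 1. Fewer spots at each end of the ranking raised the Pdgfra log2 ratio between fibroblast-rich and fibroblast-poor spots to 4.09 in unwounded oral mucosa, 5.79 at facial day 4 and 4.49 in unwounded facial skin. The same-spot ratio of Pdgfa with Pdgfra, thinned to 1000 UMIs, was 0.964 at oral day 4 and 0.00 in unwounded oral mucosa.

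Leaving out 1 part of a section gave 1 to 5 members higher at oral day 4, 0 to 5 at facial day 4, 0 to 1 higher and 4 to 5 lower between unwounded tissues and 1 to 5 lower between day 4 tissues. For pathway genes it gave 9 to 54 higher and 1 to 3 lower at oral day 4, 1 to 9 higher and 19 to 26 lower at facial day 4, 0 to 1 higher and 57 to 64 lower between unwounded tissues, and 1 to 15 higher and 15 to 48 lower between day 4 tissues. The cause of these moves was not tested. No paired analysis was possible because each group held 1 section. Depth limits Pdgfd most, with 9 to 27 UMIs per section.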
